A study of Mus musculus with 16 samples.

Results

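The genes described here are 42 lysosomal genes: 7 cysteine proteases, 3 other proteases, 8 glycosidases, 8 genes of lipid and sphingolipid breakdown, progranulin, 6 membrane proteins, the calcium channel Mcoln1, 7 genes of the proton pump V-ATPase and the transcription factor Tfeb. They were taken by gene symbol from a list set with earlier results of these data known, by a rule that reads no measured value. Each symbol occurred once among the 55414 features of the microglia table and once among the 56980 features of the astrocyte table. The study sequenced RNA of mouse microglia and astrocytes in 4 groups of 2 libraries for each cell type, 16 libraries in all. Mice labelled WT carried neither change. CKO mice carried the conditional knockout of Rack1, a ribosome-bound scaffold protein, in microglia. AD WT mice carried an Alzheimer's disease (AD) model without the knockout, and AD CKO mice carried both. The astrocyte libraries came from mice of the same 4 genotypes, so that the knockout in that cell type's groups was directed at microglia. The driver of the knockout, the AD model, the age of the mice, the way the cells were isolated and whether libraries came from separate or pooled animals are not given in the sources used here. The p-values therefore measure the spread between these libraries, which may be technical.

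Lysosomes are acidic organelles in which cells break down protein, sugar chains, lipids and material taken up from outside. V-ATPase pumps protons into the lumen, membrane proteins such as Lamp1 and Lamp2 form the boundary, and soluble hydrolases, most of them carried there by mannose 6-phosphate receptors, do the digestion. Tfeb and related factors raise the transcription of many of these genes together by binding an E-box in their promoters. Microglia, the resident phagocytes of the brain, are rich in lysosomes and take up amyloid and debris, and inherited loss of several of the members causes lysosomal storage disease of the nervous system.

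Libraries held 27741882 to 33933068 counts in microglia and 29615853 to 35851170 in astrocytes, and all 42 members passed the filter on low counts in both tables. Levels are CPM, counts scaled to library size with TMM factors, and differences are log2 fold changes with their standard error (SE). A member is said to have risen or fallen where the adjusted p of edgeR's quasi-likelihood test, adjusted over all genes tested, was under 0.05. The SE was worked back from the F statistic of that test, as the size of the log2 fold change divided by the square root of F. In the microglia libraries Rack1 stood at 98.1 and 95.2 CPM in the WT libraries, 40.4 and 41.96 in CKO, 113 and 115 in AD WT and 47.2 and 47.8 in AD CKO. With the knockout it fell by 1.23 on the log2 scale without the AD model and fell by 1.26 with it. In the astrocyte libraries Rack1 stood at 61.1 and 57.9 CPM in the WT libraries, 102 and 95.7 in CKO, 76.6 and 72.9 in AD WT and 54.7 and 53.3 in AD CKO. Markers of other cells moved with the groups in both tables. In the microglia libraries the summed level of 10 microglia markers was 45667 and 47116 CPM in WT, 24305 and 24533 in CKO, 39549.7 and 39986 in AD WT and 26284 and 26409.9 in AD CKO. In the same order of groups, that of 10 oligodendrocyte markers was 3141 and 3282, 8219 and 8613, 3741 and 3745 and 2258 and 2309.9. That of 8 border macrophage and monocyte markers was 231 and 235, 545 and 548, 201 and 202 and 421 and 433. No marker of these microglia and macrophage lists was at 0 in any library. In bulk RNA, fewer cells of a type and less RNA per cell cannot be told apart.

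The members' promoters are shown because the E-box CACGTG, the core bound by Tfeb and its relatives, is in some of them and was not used to choose the members. RefSeq windows of 250 bases before to 50 after a start, on GRCm38.p6, existed for 36 of the 42 members. CACGTG, which reads the same on both strands, was in a window of 11 of the 36 (30.6%), against 8.09% of the 27025 genes with a window. The longer form TCACGTGA, which contains CACGTG and also reads the same on both strands, was in a window of 6 of the 36 (16.7%: Atp6v0d1, Atp6v1a, Ctsa, Ctsd, Gla and Mcoln1), against 1.12% of all genes. GAGGAAGT, a form bound by the myeloid factor PU.1, searched on both strands, was in a window of 4 (11.1%: Ctsc, Ctss, Gla and Gusb), against 3.69%. These matches are descriptions of letters in a window and not measured binding. The stretches below lie upstream of the RefSeq start and outside the exons of GENCODE M21, are written 5′ to 3′ on the gene's own strand, and have the match in capitals. The first is the promoter of Lamp1 (chr8:13159078-13159160, plus strand), which holds 4 copies, the second that of Atp6v1a (chr16:44139363-44139412, minus strand; the GENCODE M21 gene starts further upstream, so there the stretch is intronic), the third that of Glb1 (chr9:114401008-114401057, plus strand) and the fourth that of Ctsc (chr7:88277912-88277963, plus strand), with the PU.1-like form on the opposite strand.
Lamp1: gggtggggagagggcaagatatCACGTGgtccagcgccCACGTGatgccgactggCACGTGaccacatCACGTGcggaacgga
Atp6v1a: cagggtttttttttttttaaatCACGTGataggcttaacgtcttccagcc
Glb1: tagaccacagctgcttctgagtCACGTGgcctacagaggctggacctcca
Ctsc: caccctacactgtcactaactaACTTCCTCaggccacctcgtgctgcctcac

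With the AD model alone, microglial lysosomal genes rose broadly: 29 of the 42 members (69.05%) rose and 1 (2.38%) fell in AD WT against WT, where 10.7% of all 17318 genes tested rose and 8.62% fell. The members' median log2 fold change was 0.25, against -0.02 over all genes. Summed over the 42 members, the level went from 73160 and 76213 CPM in the WT libraries to 104200 and 105411 in AD WT, and Ctsd alone made up 30.7% of the sum in WT and 38.98% in AD WT. Of the 11 members with CACGTG in a window 8 rose and 1 fell (median 0.46), and of the 25 with a window but no CACGTG 19 rose (median 0.23). Of the 6 without a window 2 rose (median 0.01). With and without CACGTG, the microglial medians were 0.48 and 0.30 in AD CKO against CKO. They were -0.05 and -0.09 in CKO against WT, and 0.01 and -0.02 in AD CKO against AD WT. In the astrocyte libraries they were 0.14 and 0.14 in AD WT against WT. The AD WT libraries differed from WT also in the summed markers of neutrophils (441 and 444 against 229 and 246 CPM), endothelial cells (644 and 647 against 358 and 363) and astrocytes (435 and 442 against 339 and 342), beside the microglia markers given above. The part of other cells in these changes was not tested.

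**Figure D1:**
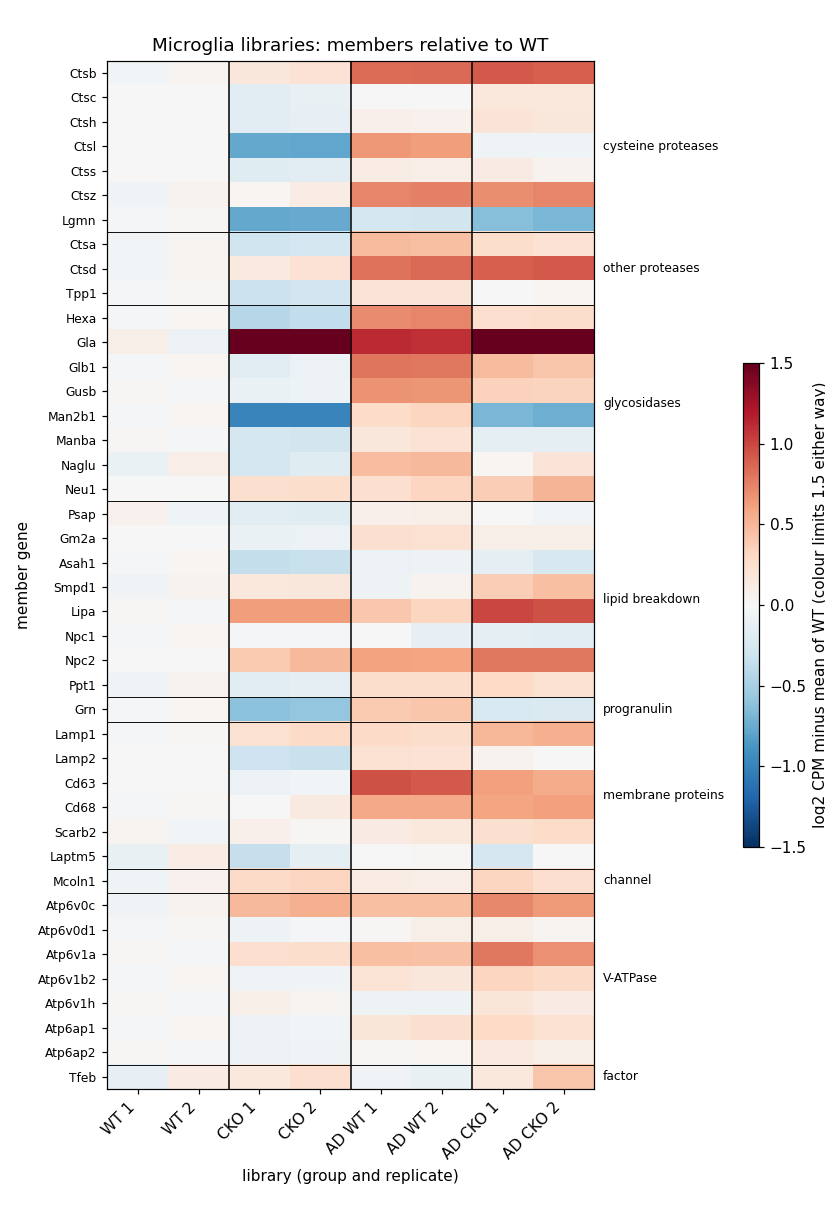
Level of each member in each microglia library, as log2 CPM minus the mean of the 2 WT libraries (columns: the 8 libraries by group and replicate; rows: members by role; red higher, blue lower, with colours ending at 1.5 either way, which Gla passes in CKO and AD CKO). Most rows are red in AD WT, where 29 members rose, and Ctsl, Lgmn, Man2b1 and Grn are blue in CKO.

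Among the proteases, cathepsin D (Ctsd, chr7:142375911-142388038, minus strand on mm10), an aspartic protease and the most abundant member, stood at 22277 and 23526 CPM in the WT libraries, 25386 and 26515 in CKO, 40336 and 41371 in AD WT and 42513 and 43420.5 in AD CKO. Both AD groups lay above both groups without the AD model, and the rise in AD WT was 0.84 ± 0.03 (SE, adjusted p = 1.1e-17). Cathepsin B (Ctsb), a cysteine protease with broad substrates, stood at 5559 and 5842 CPM in the WT libraries, 6432 and 6645 in CKO, 10172 and 10264 in AD WT and 10782 and 10637 in AD CKO. It rose by 0.84 ± 0.03 (SE, adjusted p = 5.7e-18). Ctsb and Ctsd therefore had nearly the same fold change from levels that differed, with no overlap between AD WT and WT. The other cysteine proteases that rose were Ctsz (0.74), Ctsl (0.63) and Ctss (0.11), while Ctsh (0.07) and Ctsc (-0.00) did not pass. Legumain (Lgmn), an asparaginyl endopeptidase that cuts other cathepsins to their mature forms, was the one member that fell, by 0.27 on the log2 scale (SE 0.03, adjusted p = 2.3e-07). Its levels were 4703 and 4829 CPM in the WT libraries, 2789 and 2828 in CKO, 3976 and 3951 in AD WT and 3067 and 2956 in AD CKO, so that WT was the highest of the 4 groups. The serine proteases cathepsin A (Ctsa), which protects beta-galactosidase and neuraminidase, and Tpp1, which trims tripeptides, rose by 0.46 and 0.20.

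All 8 glycosidases rose. Alpha-galactosidase A (Gla, chrX:134588149-134601125, minus strand), the enzyme missing in Fabry disease, was the least abundant member per length and had the highest fold change, 1.11 ± 0.10 (SE, adjusted p = 1.3e-09). It stood at 10.9 and 9.64 CPM in the WT libraries, 29.6 and 30.5 in CKO, 22.3 and 21.8 in AD WT and 57.1 and 56.9 in AD CKO, a low level at which the groups still did not overlap. Beta-galactosidase (Glb1) stood at 113 and 117 CPM in the WT libraries, 102 and 108 in CKO, 199.95 and 198 in AD WT and 159.8 and 153 in AD CKO. It rose by 0.79 ± 0.05 (SE, adjusted p = 2.4e-12). The remaining 6, in falling order, were Hexa (0.72), Gusb (0.67), Naglu (0.47), Man2b1 (0.30), Neu1 (0.29) and Manba (0.19), which remove hexosamine, glucuronic acid, N-acetylglucosamine, mannose and sialic acid residues.

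Of the 8 genes of lipid breakdown 4 rose, namely Npc2 (0.60), Lipa (0.37), Ppt1 (0.27) and Gm2a (0.23). Npc2 hands cholesterol to Npc1 inside the lysosome, Lipa frees it from esters, Ppt1 removes palmitate from proteins and Gm2a presents ganglioside to hexosaminidase. Psap (0.08), Npc1 (-0.05), Smpd1 (-0.02) and Asah1 (-0.08) did not pass. Progranulin (Grn), a secreted protein that is cut into granulins in lysosomes, rose by 0.40 ± 0.03 (SE, adjusted p = 1.4e-10). Of the membrane proteins 5 of 6 rose, led by the tetraspanin Cd63 at 0.94 ± 0.04 (SE, adjusted p = 2.0e-16). Cd63 stood at 422 and 425 CPM in the WT libraries, 399 and 412 in CKO, 821 and 804 in AD WT and 650.2 and 624 in AD CKO, so that AD WT was the highest group and AD CKO lay between it and the groups without the AD model. The macrophage sialomucin Cd68 rose by 0.57, Lamp1 by 0.27, Lamp2 by 0.22 and Scarb2, the receptor that carries glucocerebrosidase, by 0.14, and the myeloid protein Laptm5 (0.01) did not pass.

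Of the 7 V-ATPase genes 4 rose, Atp6v0c (0.45), Atp6v1a (0.44), Atp6ap1 (0.21) and Atp6v1b2 (0.18): the proteolipid of the membrane ring, the A and B subunits of the catalytic head, and an accessory protein. Atp6v0d1 (0.06), Atp6ap2 (0.02) and Atp6v1h (-0.08) did not pass, nor did Mcoln1 (0.10) or Tfeb (-0.08). Tfeb stood at 61.5 and 72.7 CPM in the WT libraries, 74.3 and 79.7 in CKO, 64.7 and 61.97 in AD WT and 74.7 and 89.5 in AD CKO, and its AD WT libraries lay within the range of WT. Atp6v1b2 (0.16) no longer passed without WT replicate 1. Manba (0.18) and Scarb2 (0.10) no longer passed without WT replicate 2. Ctss (0.10), Manba (0.22), Scarb2 (0.16) and Atp6v1b2 (0.17) no longer passed without AD WT replicate 1. Ctss (0.12), Manba (0.17) and Scarb2 (0.12) no longer passed without AD WT replicate 2. Psap (0.15) passed without WT replicate 1.

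In mice with the knockout, the AD model was accompanied by a rise in 35 of the 42 members (83.3%) and a fall in none (AD CKO against CKO; 7.73% of all genes rose and 6.92% fell), with a median of 0.32. At an unadjusted p under 0.05 only Npc1 (-0.12) was lower, and DESeq2 and limma-voom, like edgeR, called a fall in 0 members. The summed level of the members was 70284 and 73100 CPM in CKO and 101436 and 102560 in AD CKO. In the same libraries the summed oligodendrocyte markers were 8219 and 8613 CPM in CKO and 2258 and 2309.9 in AD CKO and the neutrophil markers 625 and 626 and 276 and 289.8. Their part in the members' changes was not tested. This comparison and AD WT against WT share no library, though both come from one fit, and 28 members rose in both, against 3.43% of all genes, and 0 fell in both, against 1.48%. The 5 with the highest fold changes were Gla at 0.92 ± 0.09 (SE), Ctsd at 0.73 ± 0.03, Ctsl at 0.72 ± 0.04, Ctsb at 0.71 ± 0.03 and Hexa at 0.66 ± 0.03, each with an adjusted p of at most 3.8e-09. Cathepsin L (Ctsl), a cysteine protease of broad specificity, stood at 1044 and 1055 CPM in the WT libraries, 616 and 609 in CKO, 1643 and 1614 in AD WT and 1014 and 1004 in AD CKO: the AD CKO libraries were near WT, with CKO below and AD WT above. All 7 cysteine proteases rose here, among them Ctsc (0.30), Ctsh (0.32) and Lgmn (0.10). Asah1 (0.16), Atp6ap2 (0.19), Psap (0.14) and Smpd1 (0.25) also rose although they had not passed without the knockout, and Manba (0.13) did not pass. Lgmn (0.11) and Neu1 (0.21) no longer passed without CKO replicate 1. Lgmn (0.11), Neu1 (0.19) and Psap (0.13) no longer passed without CKO replicate 2. Lgmn (0.10) and Neu1 (0.19) no longer passed without AD WT replicate 1. Lgmn (0.10) and Neu1 (0.19) no longer passed without AD WT replicate 2. Lgmn (0.10) and Asah1 (0.14) no longer passed without AD CKO replicate 1. Neu1 (0.12) and Smpd1 (0.21) no longer passed without AD CKO replicate 2. With library totals as the only scaling 26 members rose and 1, Npc1, fell.

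**Figure D2:**
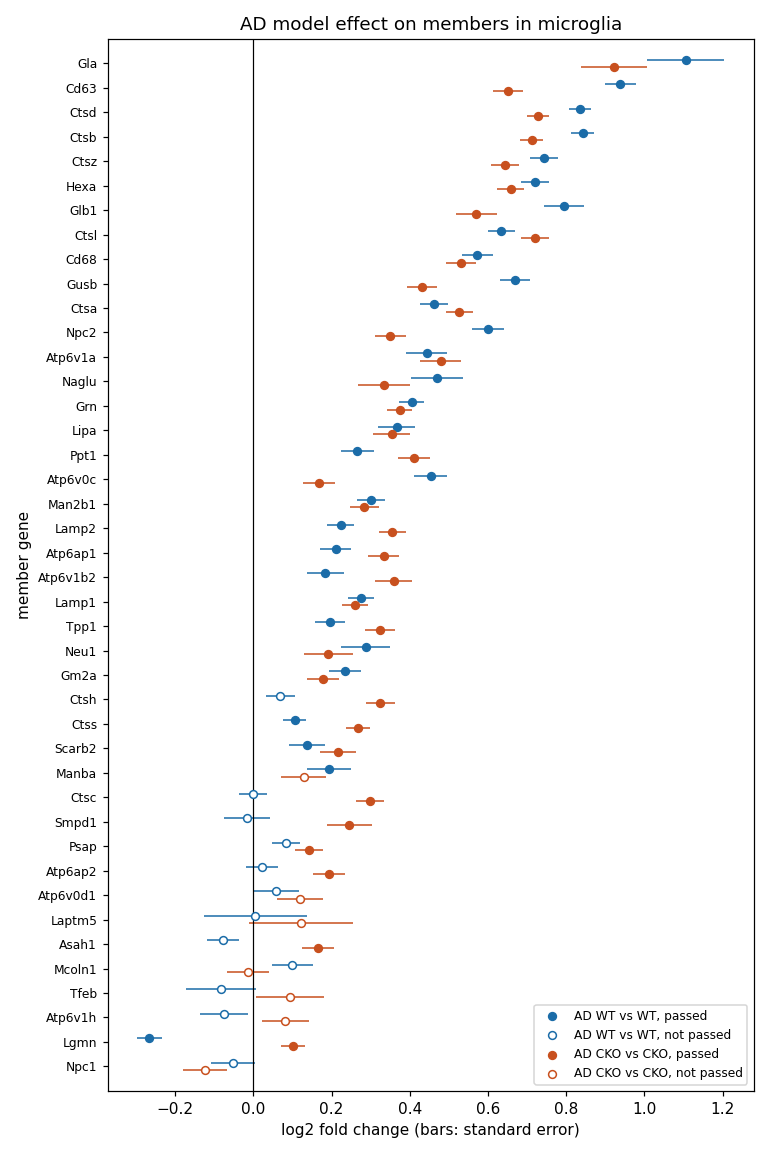
Log2 fold change of each member with the AD model in microglia, without the knockout (AD WT vs WT, blue) and with it (AD CKO vs CKO, orange); points are estimates from 2 libraries a group, bars are standard errors, and filled points passed the test. All filled points but that of Lgmn in AD WT vs WT lie to the right of 0.

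The knockout by itself moved lysosomal genes in both directions. In CKO against WT 11 members (26.2%) rose and 16 (38.1%) fell, with a median of -0.07 (0.04 over all genes, of which 17.7% rose and 15.9% fell). The highest rise was that of Gla, 1.55 ± 0.10 (SE, adjusted p = 2.9e-13), with the levels given above. Acid lipase (Lipa), which frees cholesterol and fatty acids from lipoprotein lipids, stood at 143 and 139 CPM in the WT libraries, 218 and 217 in CKO, 187 and 176 in AD WT and 283 and 273 in AD CKO. It rose by 0.63 ± 0.05 (SE, adjusted p = 2.1e-11). Npc2 stood at 402 and 406 CPM in the WT libraries, 531 and 565 in CKO, 614 and 609.9 in AD WT and 698 and 698 in AD CKO. It rose by 0.44 ± 0.04 (SE, adjusted p = 6.6e-10). The groups of these genes did not overlap between CKO and WT, and Lipa and Npc2 were highest where both changes were present.

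The V-ATPase proteolipid Atp6v0c stood at 473 and 512 CPM in the WT libraries, 688 and 715 in CKO, 675 and 675 in AD WT and 809 and 767 in AD CKO. It rose by 0.51 ± 0.04 (SE, adjusted p = 1.1e-10). A pseudogene of near-identical sequence, Atp6v0c-ps2, held 14.4 to 21.4% of the counts of both in the microglia libraries, and with its counts added to the gene, a variation chosen after seeing the data, the rise was 0.51. The catalytic subunit Atp6v1a rose by 0.26, and Atp6v1h (0.07), Atp6v0d1 (-0.05), Atp6v1b2 (-0.05), Atp6ap1 (-0.07) and Atp6ap2 (-0.08) did not pass. Mcoln1 (chr8:3500457-3515232, plus strand), the channel that releases calcium from lysosomes, stood at 128 and 141 CPM in the WT libraries, 163 and 167 in CKO, 144 and 143 in AD WT and 168 and 159 in AD CKO. It rose by 0.30 ± 0.05 (SE, adjusted p = 5.6e-05). Lamp1 rose by 0.26 and Lamp2, a protein of chaperone-mediated autophagy with much the same structure, fell by 0.32 on the log2 scale. The other members that rose were Neu1 (0.25), Ctsb (0.20), Ctsd (0.18) and Smpd1 (0.16).

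The deepest fall was that of alpha-mannosidase (Man2b1, chr8:85083270-85098282, plus strand), which trims mannose from glycoproteins: it stood at 1334 and 1393 CPM in the WT libraries, 685 and 686 in CKO, 1657 and 1704 in AD WT and 847 and 822 in AD CKO, with a log2 fold change of -0.99 ± 0.04 (SE, adjusted p = 2.7e-18). Every library with the knockout lay below every library without it. Ctsl had -0.78 ± 0.04 (SE, adjusted p = 2.6e-16) and Lgmn -0.76 ± 0.03 (SE, adjusted p = 3.3e-17), each with CKO below every other group. Progranulin (Grn, chr11:102430315-102437048, plus strand) stood at 2917 and 3039 CPM in the WT libraries, 1945 and 1990.5 in CKO, 3915 and 3969 in AD WT and 2538 and 2563 in AD CKO. It had -0.60 ± 0.03 (SE, adjusted p = 1.3e-14). The alpha subunit of hexosaminidase, Hexa, which degrades GM2 ganglioside, stood at 1257 and 1299 CPM in the WT libraries, 949 and 986 in CKO, 2095 and 2116 in AD WT and 1518 and 1536 in AD CKO. It had -0.40 ± 0.03 (SE, adjusted p = 2.7e-10). For Grn and Hexa CKO was the lowest group and AD WT the highest, with no overlap between any pair of groups. The remaining members that fell were Asah1 (-0.35), Tpp1 (-0.31), Ctsa (-0.28), Manba (-0.27), Naglu (-0.22), Ctss (-0.18), Psap (-0.17), Ppt1 (-0.15), Ctsh (-0.14) and Ctsc (-0.14), so that 5 of the 7 cysteine proteases fell. Tfeb (chr17:47737030-47792419, plus strand) had 0.20 ± 0.09 and did not pass (adjusted p = 0.1). The summed microglia markers were lower and the summed border macrophage, neutrophil (625 and 626 CPM) and oligodendrocyte markers higher in CKO than in WT. All 10 microglia markers fell, 6 of 8 border macrophage markers and all 7 neutrophil markers rose, and their part in the members' changes was not tested. Smpd1 (0.11) no longer passed without WT replicate 1. Naglu (-0.12) and Ppt1 (-0.09) no longer passed without WT replicate 2. Naglu (-0.21) and Smpd1 (0.14) no longer passed without CKO replicate 1. Smpd1 (0.16) no longer passed without CKO replicate 2. Smpd1 (0.14) no longer passed without AD CKO replicate 1. Ctsz (0.12) and Tfeb (0.33) passed without WT replicate 2. Glb1 (-0.15), Gusb (-0.12) and Gm2a (-0.12) passed without AD CKO replicate 1. Tfeb (0.20) passed without AD CKO replicate 2.

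**Figure D3:**
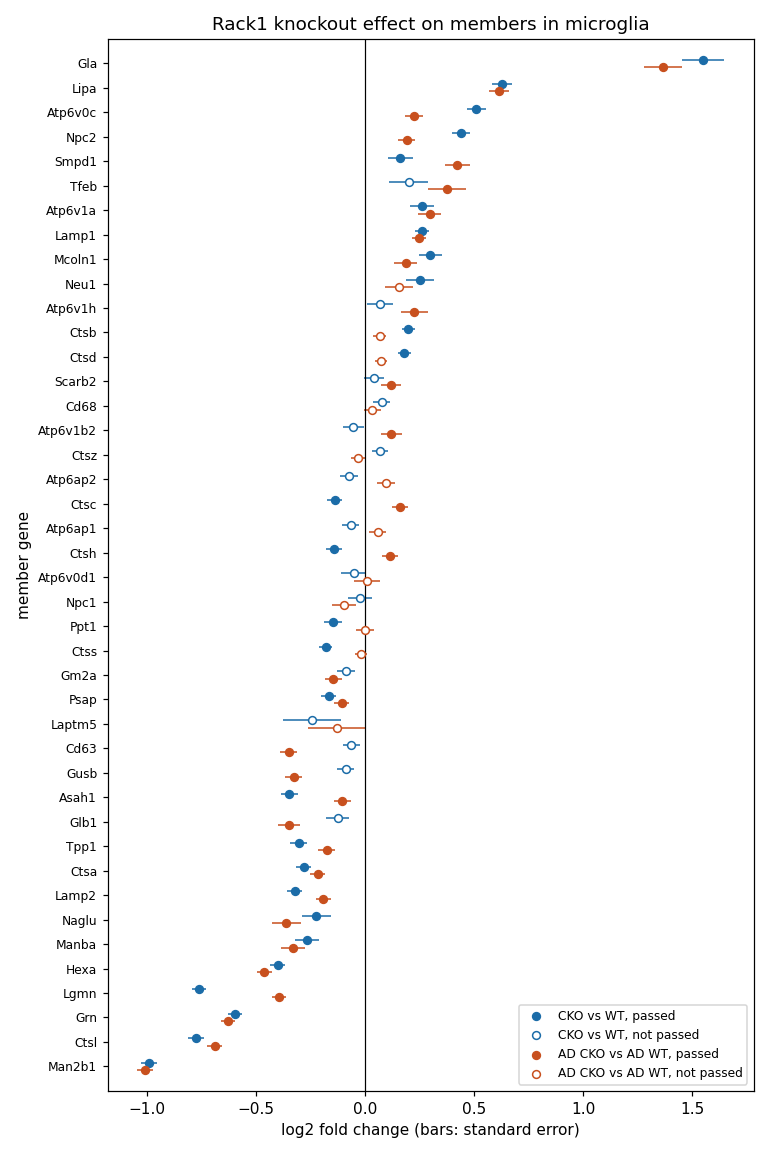
Log2 fold change of each member with the Rack1 knockout in microglia, without the AD model (CKO vs WT, blue) and with it (AD CKO vs AD WT, orange); points are estimates from 2 libraries a group, bars are standard errors, and filled points passed the test. Rows are ordered by the sum of the 2 fold changes, with Gla and Lipa at the top and Man2b1, Ctsl, Grn and Lgmn at the bottom. In AD CKO vs AD WT alone, Hexa (-0.46) fell further than Lgmn (-0.40).

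Within the AD model, the knockout again divided the members: 14 (33.3%) rose and 16 (38.1%) fell in AD CKO against AD WT (17% of all genes rose and 15% fell), with a median of 0.00. This comparison shares no library with CKO against WT. In both, 8 members rose (Atp6v0c, Atp6v1a, Gla, Lamp1, Lipa, Mcoln1, Npc2 and Smpd1; 10.0% of all genes did so) and 12 fell (Asah1, Ctsa, Ctsl, Grn, Hexa, Lamp2, Lgmn, Man2b1, Manba, Naglu, Psap and Tpp1; 8.07% of all genes). Of the 7 V-ATPase genes 2 rose in both. The sign was the same in 35 of the 42. The highest rises were those of Gla (1.37), Lipa (0.61), Smpd1 (0.42), Tfeb (0.38) and Atp6v1a (0.30). Acid sphingomyelinase (Smpd1), which turns sphingomyelin into ceramide, stood at 96.2 and 103 CPM in the WT libraries, 111 and 112 in CKO, 94.1 and 103 in AD WT and 128 and 136 in AD CKO, and its rise of 0.42 ± 0.06 (SE, adjusted p = 1.5e-06) left AD CKO above the other 3 groups. Tfeb, with 0.38 ± 0.09 (SE, adjusted p = 0.0039), passed here and not in CKO against WT, and the difference between the 2 effects, 0.18 ± 0.13 (SE), did not pass. Atp6v1a stood at 98.3 and 96.5 CPM in the WT libraries, 116 and 117 in CKO, 133 and 132 in AD WT and 169 and 156 in AD CKO, with AD CKO the highest.

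The 5 deepest falls were those of Man2b1 (-1.01), Ctsl (-0.69), Grn (-0.63), Hexa (-0.46) and Lgmn (-0.40), each with an adjusted p of at most 7.0e-11. They were also the 5 deepest in CKO against WT, in another order. Of the 8 glycosidases 6 fell, with Naglu (-0.36), Glb1 (-0.35), Manba (-0.33) and Gusb (-0.33) beside Man2b1 and Hexa, so that Glb1 and Gusb ended between their WT and AD WT levels. Gusb stood at 429 and 418 CPM in the WT libraries, 394 and 401 in CKO, 676 and 670.4 in AD WT and 538 and 534 in AD CKO. The lipid genes Gm2a (-0.15), Psap (-0.11) and Asah1 (-0.10) fell, as did Cd63 (-0.35), Ctsa (-0.22), Lamp2 (-0.19) and Tpp1 (-0.18). Of the V-ATPase genes 4 rose, Atp6v1a (0.30), Atp6v1h (0.23), Atp6v0c (0.22) and Atp6v1b2 (0.12), and Atp6ap2 (0.09), Atp6ap1 (0.06) and Atp6v0d1 (0.01) did not pass. Also rising were Lamp1 (0.25), Npc2 (0.19), Mcoln1 (0.19), Ctsc (0.16), Scarb2 (0.12) and Ctsh (0.11). The summed microglia markers were again lower with the knockout, and the border macrophage markers higher, 5 of 8 having risen and none fallen, but here the oligodendrocyte and neutrophil (276 and 289.8 CPM) sums were lower in AD CKO than in AD WT, the opposite of CKO against WT. Their part in the members' changes was not tested. Ctsh (0.10), Scarb2 (0.10) and Atp6v1b2 (0.10) no longer passed without CKO replicate 1. Scarb2 (0.11) and Atp6v1b2 (0.11) no longer passed without CKO replicate 2. Ctsh (0.12), Psap (-0.11), Gm2a (-0.14), Asah1 (-0.11), Scarb2 (0.10), Mcoln1 (0.19) and Atp6v1b2 (0.14) no longer passed without AD WT replicate 1. Ctsh (0.11), Psap (-0.10), Gm2a (-0.15), Asah1 (-0.10), Scarb2 (0.14), Mcoln1 (0.18) and Atp6v1b2 (0.10) no longer passed without AD WT replicate 2. Ctsh (0.09), Scarb2 (0.12), Mcoln1 (0.13), Atp6v1b2 (0.09) and Atp6v1h (0.18) no longer passed without AD CKO replicate 1. Psap (-0.08), Asah1 (-0.05), Scarb2 (0.11) and Atp6v1b2 (0.14) no longer passed without AD CKO replicate 2. Ctsb (0.07) and Ctsd (0.07) passed without WT replicate 1. Ctsb (0.07), Ctsd (0.08) and Neu1 (0.16) passed without WT replicate 2. Neu1 (0.21) passed without AD CKO replicate 1. Atp6ap2 (0.13) passed without AD CKO replicate 2.

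The knockout effect differed with the AD model (the interaction, AD CKO minus AD WT against CKO minus WT) in 12 members: 6 (14.3%) were higher and 6 lower, where 5.53% and 7.19% of all genes were. With other scaling the split was 7 and 4 (RLE), 8 and 4 (DESeq2) or 4 and 8 (library totals only), so the balance between the directions rests on the scaling. Legumain had the highest difference, 0.37 ± 0.04 (SE, adjusted p = 8.2e-07): the knockout took it from 4766 to 2808 CPM on average without the AD model and from 3964 to 3011 with it. Cathepsin C (Ctsc), which activates granule proteases, had 0.30 ± 0.05 (SE, adjusted p = 1.1e-04) and the aminopeptidase cathepsin H (Ctsh) 0.26 ± 0.05 (SE, adjusted p = 0.001). Both fell with the knockout in CKO (-0.14 and -0.14) and rose in AD CKO (0.16 and 0.11). Ctsc stood at 969 and 979 CPM in the WT libraries, 869 and 899 in CKO, 972 and 975 in AD WT and 1084 and 1089 in AD CKO. Ctsh stood at 698 and 699 CPM in the WT libraries, 626 and 641 in CKO, 735 and 729.8 in AD WT and 799 and 787 in AD CKO. For both, CKO was the lowest and AD CKO the highest group. Smpd1 (0.26), acid ceramidase Asah1 (0.24) and cathepsin S (0.16), the protease of antigen presentation, were the other members on this side. On the other side stood Cd63 (-0.29), Atp6v0c (-0.29), Npc2 (-0.25), Gusb (-0.24), Glb1 (-0.22) and Ctsb (-0.13). Asah1 stood at 784 and 821 CPM in the WT libraries, 624 and 638 in CKO, 757 and 764 in AD WT and 733 and 681 in AD CKO, and the gap between CKO and WT was the wider one. Ctsb (-0.09) and Glb1 (-0.20) no longer passed without WT replicate 1. Smpd1 (0.21) no longer passed without WT replicate 2. Ctsb (-0.14) and Smpd1 (0.27) no longer passed without CKO replicate 1. Ctsb (-0.11), Glb1 (-0.19) and Smpd1 (0.26) no longer passed without CKO replicate 2. Ctsb (-0.14), Ctss (0.17), Glb1 (-0.22) and Smpd1 (0.20) no longer passed without AD WT replicate 1. Ctsb (-0.12), Ctss (0.15) and Glb1 (-0.23) no longer passed without AD WT replicate 2. Ctsb (-0.13) no longer passed without AD CKO replicate 1. Ctsb (-0.12), Glb1 (-0.19) and Smpd1 (0.22) no longer passed without AD CKO replicate 2. Ppt1 (0.20) passed without WT replicate 1. Ctsz (-0.15), Ctsd (-0.15), Naglu (-0.24) and Atp6ap2 (0.19) passed without WT replicate 2. Atp6ap2 (0.21) passed without AD CKO replicate 2.

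Other genes of the pathway were counted in the same way, beside 10.7% of all genes risen and 8.62% fallen with the AD model, 17.7% and 15.9% with the knockout, and 17% and 15% with the knockout within the AD model. Of 28 further lysosomal enzymes, 11 of 28 rose and 8 fell with the AD model, led by Pld3 (0.97), Gaa (0.70) and Scpep1 (0.60); with the knockout 8 of 28 rose and 10 fell, with Arsb at -0.91 and Ctsf at -0.77. The tartrate-resistant phosphatase Acp5, a gene of osteoclasts and some macrophages, rose by 2.84 in AD CKO against AD WT, from a mean of 1.44 to 10.3 CPM. Of 13 further V-ATPase subunits, 8 of 13 rose and 1 fell with the AD model, led by the osteoclast and macrophage subunit Atp6v0d2 (2.04), and 7 of 13 rose and 5 fell with the knockout, led by Tcirg1 (0.61). Of 16 genes of the Tfeb family and of nutrient sensing at the lysosome, 7 rose and 1 fell in each of the knockout comparisons, with Mitf (0.68), Lamtor3 (0.50) and Flcn (0.34) in CKO and Lamtor3 (0.45), Flcn (0.32) and Rragc (0.31) in AD CKO, and 5 rose and 3 fell with the AD model, with Rragd (1.40), Mitf (0.48) and Rragc (0.21). Among 9 sorting genes, of which 3 rose and 1 fell in CKO and 1 rose and 1 fell in AD CKO, the receptor Sort1 fell in both knockout comparisons (-0.82 and -0.59) and the mannose 6-phosphate receptor M6pr rose in both (0.32 and 0.49). Among 20 further membrane genes, of which 5 rose and 4 fell with the knockout and 4 rose with the AD model, the iron transporter Slc11a1 fell with the knockout (-0.91 and -0.63) and rose with the AD model (0.32 and, with the knockout, 0.60), while the chloride exchanger Clcn7 rose with the knockout (0.57 and 0.51). Among the cathepsin inhibitors, cystatin F (Cst7) had 2.00 with the AD model and -0.95 with the knockout, cystatin C (Cst3) -0.23 and -0.95, and stefin B (Cstb) 0.49 and 0.37.

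In astrocyte libraries of mice with the microglial knockout, most members fell and others rose. In CKO against WT 25 members (59.5%) fell and 11 (26.2%) rose (32.4% of all 20116 genes tested fell and 31.6% rose), with a median of -0.24. With library totals as the only scaling the split was 21 and 15. Acid sphingomyelinase (Smpd1) stood at 435 and 427 CPM in the WT libraries, 237 and 236 in CKO, 443 and 439 in AD WT and 289 and 274 in AD CKO. It had -0.87 ± 0.04 (SE, adjusted p = 6.5e-14). Prosaposin (Psap), the precursor of the saposins that present sphingolipids to their hydrolases, stood at 1493 and 1453 CPM in the WT libraries, 840.4 and 872 in CKO, 1497 and 1534 in AD WT and 1164 and 1155 in AD CKO. It had -0.78 ± 0.04 (SE, adjusted p = 3.2e-14). The other deepest falls were those of Manba (-0.71), Tpp1 (-0.66) and Gm2a (-0.65). Manba, a mannosidase, stood at 48.2 and 50.5 CPM in the WT libraries, 27.5 and 33.1 in CKO, 46.01 and 47.97 in AD WT and 34.9 and 41.5 in AD CKO. Tpp1 stood at 481 and 490.3 CPM in the WT libraries, 303 and 311 in CKO, 505 and 536 in AD WT and 357 and 360.3 in AD CKO. Gm2a, the ganglioside activator, stood at 337 and 344 CPM in the WT libraries, 212 and 222 in CKO, 368 and 367 in AD WT and 248 and 237 in AD CKO. CKO was the lowest group for each. Of the 8 glycosidases 7 fell and of the lipid genes 6 of 8, including Asah1 (-0.53), Ppt1 (-0.41) and Npc1 (-0.27). The other members that fell were Ctsa (-0.44), Lamp2 (-0.43), Man2b1 (-0.44), Atp6v1a (-0.42), Lamp1 (-0.42), Mcoln1 (-0.34), Glb1 (-0.33), Hexa (-0.33), Naglu (-0.32), Atp6v1b2 (-0.30), Ctsb (-0.27), Atp6v0d1 (-0.27), Atp6ap2 (-0.24), Gusb (-0.23), Neu1 (-0.22), Scarb2 (-0.20) and Tfeb (-0.18). In the same libraries the summed level of 10 astrocyte markers was 10225 and 10448 CPM in CKO, 23422 and 23819 in WT, 22374 and 23127 in AD WT and 14335 and 14503 in AD CKO, with 8 of the 10 lower in CKO than in WT, and the part of the makeup of the libraries in these changes was not tested. In the order WT, CKO, AD WT and AD CKO, the oligodendrocyte markers summed to 14325 and 14490.1, 12979 and 13306, 6744 and 6942 and 18905 and 19021 CPM. The endothelial markers summed to 1415 and 1447, 3953 and 4066, 1756 and 1815 and 2016 and 2048 CPM and the neuron markers to 49.96 and 51.5, 96.02 and 96.04, 54.3 and 59.2 and 72.6 and 74.05 CPM, both highest in CKO. The opposite strand of the 3' part of Ctsa overlaps Pltp, which stood at 822 to 1869.7 CPM there, so the value of Ctsa is uncertain. In CPM of library totals, Rgs20 on the opposite strand of Atp6v1h stood at 61.0 to 145.6, against 151.7 to 189.4 for Atp6v1h. Likewise, Rmc1 stood at 36.2 to 49.4 against 103.8 to 134.2 for Npc1, and Fdft1 at 271 to 442 against 1319 to 1656 for Ctsb. The values of Atp6v1h, Npc1 and Ctsb are uncertain in the same way.

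The 5 members that rose most in the astrocyte CKO libraries, Cd68, Ctss, Laptm5, Ctsh and Ctsc, were all higher in WT microglia than in WT astrocytes in the fit of both cell types described last. So were Man2b1 (4.89), which fell here, and Grn (4.41) and Lgmn (4.26), which did not pass. Cd68 (chr11:69664213-69666153, minus strand) stood at 11.9 and 11.3 CPM in the WT libraries, 108 and 104 in CKO, 59.99 and 55.3 in AD WT and 68.3 and 61.5 in AD CKO. It rose by 3.19 ± 0.08 (SE, adjusted p = 2.6e-19). Cathepsin S (Ctss) stood at 66.4 and 64.7 CPM in the WT libraries, 547 and 541 in CKO, 246 and 249.8 in AD WT and 275 and 272 in AD CKO. It rose by 3.05 ± 0.05 (SE, adjusted p = 1.2e-22). Laptm5 stood at 47.7 and 52.5 CPM in the WT libraries, 182 and 177 in CKO, 129 and 137 in AD WT and 170.3 and 162 in AD CKO. Ctsh stood at 88.2 and 84.8 CPM in the WT libraries, 256 and 254 in CKO, 133 and 133 in AD WT and 176 and 164 in AD CKO. Ctsc stood at 72.4 and 72.4 CPM in the WT libraries, 171 and 187 in CKO, 114 and 115 in AD WT and 107 and 109 in AD CKO. Their rises were 1.84, 1.56 and 1.30. For Cd68, Ctss, Ctsh and Ctsc CKO was the highest group, WT the lowest, and both AD groups lay between. The summed microglia markers in these libraries were 479 and 486 CPM in WT, 1098 and 1124 in CKO, 895 and 927 in AD WT and 876 and 888 in AD CKO, 9 of the 10 having risen and 1 fallen in CKO against WT. Border macrophage markers were at 21.5 and 22.1, 73.2 and 83.5, 23.2 and 24.4 and 49.1 and 55.1 CPM in the same order. Neutrophil markers were at 51.5 and 54.1, 128 and 139, 29.5 and 35.6 and 27.7 and 28.3. These sums were highest in CKO, where Cd68 and Ctss were highest, and their part in the rises was not tested. The other members that rose were Ctsd (0.58), Lipa (0.32), Ctsz (0.30), Npc2 (0.29), Gla (0.29) and Atp6v1h (0.17). Ctsd stood at 1532 and 1506 CPM in the WT libraries, 2243 and 2306 in CKO, 2354 and 2334 in AD WT and 2417 and 2419 in AD CKO, with WT below the other 3 groups. Gla (0.22), Gusb (-0.18), Neu1 (-0.15), Atp6v1h (0.15) and Tfeb (-0.19) no longer passed without WT replicate 1. Tfeb (-0.18) no longer passed without WT replicate 2. Gusb (-0.13) and Scarb2 (-0.15) no longer passed without CKO replicate 1. Gla (0.23), Neu1 (-0.18), Atp6v1h (0.14) and Tfeb (-0.12) no longer passed without CKO replicate 2.

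**Figure D4:**
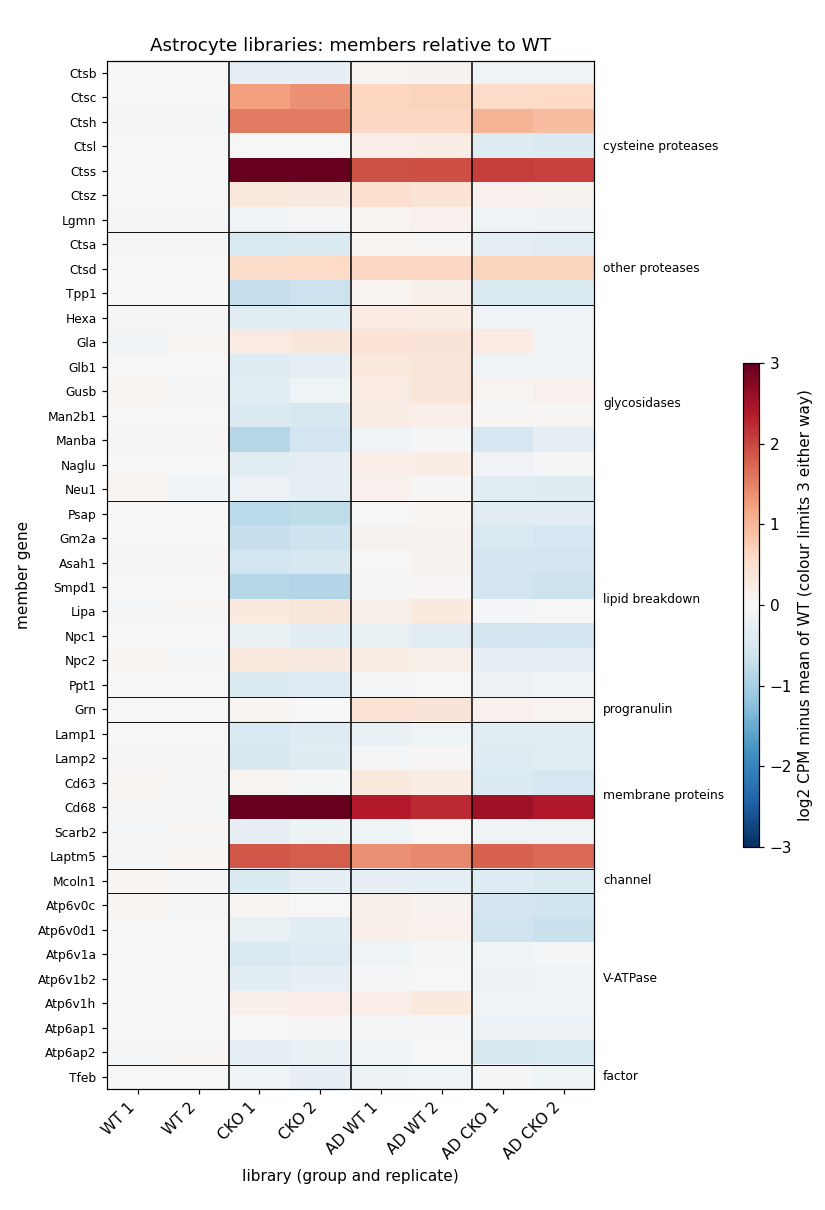
Level of each member in each astrocyte library, as log2 CPM minus the mean of the 2 WT libraries (columns: the 8 libraries by group and replicate; rows: members by role; red higher, blue lower, with colours ending at 3 either way, which Cd68 and Ctss pass or reach in CKO). The dark red rows Cd68, Ctss and Laptm5 and the lighter Ctsh and Ctsc are high in the 3 groups other than WT, and most other rows are pale blue in CKO and AD CKO.

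With the AD model and no knockout, 21 members (50%) rose and 3 (7.14%) fell in the astrocyte libraries (20% and 18% of all genes), with a median of 0.12. The highest rises were those of Cd68 (2.31), Ctss (1.92), Laptm5 (1.41) and Ctsc (0.66), next to Ctsd (0.63) and Ctsh (0.62), and 9 of 10 microglia markers rose as well. The summed oligodendrocyte and neutrophil markers, given above, were lower in AD WT than in WT, and the part of these cells was not tested. Beyond these, 6 of the 8 glycosidases rose, by Gla (0.40), Glb1 (0.35), Gusb (0.31), Hexa (0.24), Naglu (0.21) and Man2b1 (0.20), as did Ctsz (0.46), Grn (0.40), Cd63 (0.25), Lipa (0.24), Atp6v1h (0.24), Npc2 (0.20), Ctsl (0.20), Atp6v0c (0.14) and Atp6v0d1 (0.14). The members that fell were the cholesterol exporter Npc1 (-0.28), Mcoln1 (-0.26) and Lamp1 (-0.17). Npc1 stood at 141 and 141 CPM in the WT libraries, 121 and 113 in CKO, 120.05 and 113 in AD WT and 97.02 and 94.5 in AD CKO. Mcoln1 stood at 116 and 109 CPM in the WT libraries, 84.1 and 93.6 in CKO, 95.2 and 92.8 in AD WT and 85.99 and 82.9 in AD CKO. Lamp1 stood at 1988 and 2027 CPM in the WT libraries, 1461 and 1539 in CKO, 1742 and 1838 in AD WT and 1601 and 1588 in AD CKO. WT was the highest group for all 3. Gla (0.32), Man2b1 (0.19), Naglu (0.19) and Atp6v0d1 (0.14) no longer passed without WT replicate 1. Man2b1 (0.19), Naglu (0.21), Npc2 (0.15), Atp6v0c (0.07) and Atp6v0d1 (0.12) no longer passed without WT replicate 2. Man2b1 (0.18), Atp6v0c (0.09) and Atp6v0d1 (0.12) no longer passed without AD WT replicate 1. Naglu (0.19), Lipa (0.17) and Atp6v0d1 (0.15) no longer passed without AD WT replicate 2. Atp6v0d1 (0.13) no longer passed without AD CKO replicate 1. Atp6v0d1 (0.13) no longer passed without AD CKO replicate 2.

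Within the AD model the microglial knockout was accompanied by a fall of 32 members (76.2%) and a rise of 4 (9.52%) in astrocyte libraries (27% of all genes fell and 25.1% rose), with a median of -0.29. This count depends on the scaling: with library totals only, which moved the median of all genes from -0.03 to 0.16, 18 fell and 8 rose, and Man2b1, Ppt1, Lamp1, Scarb2, Mcoln1 and Atp6ap1 changed sign. All 8 glycosidases and all 8 lipid genes fell in the TMM-scaled fit, as did 5 of the 7 V-ATPase genes. The deepest falls were those of the V-ATPase subunits Atp6v0d1, -0.76 ± 0.05 (SE, adjusted p = 4.0e-11), and Atp6v0c, -0.71 ± 0.05 (SE, adjusted p = 3.2e-11). Atp6v0d1 stood at 158 and 157 CPM in the WT libraries, 134 and 126 in CKO, 175 and 171 in AD WT and 105 and 99.5 in AD CKO. Atp6v0c stood at 800.1 and 744 CPM in the WT libraries, 821 and 765 in CKO, 871 and 826 in AD WT and 527 and 512 in AD CKO. Next came Cd63 (-0.70) and Smpd1 (-0.65) and acid ceramidase Asah1 (-0.60). Cd63 stood at 938 and 875 CPM in the WT libraries, 954 and 890.2 in CKO, 1102 and 1050.2 in AD WT and 686 and 641 in AD CKO. Asah1 stood at 554 and 578 CPM in the WT libraries, 379 and 404 in CKO, 559 and 609 in AD WT and 381 and 388 in AD CKO. For Atp6v0d1, Atp6v0c and Cd63 the AD CKO libraries were the lowest of the 4 groups, without overlap. The 4 that rose were Ctsh (0.36), Laptm5 (0.32), Cd68 (0.17) and Ctss (0.14). The summed astrocyte markers fell from 22374 and 23127 to 14335 and 14503 CPM and the oligodendrocyte markers rose from 6744 and 6942 to 18905 and 19021, and their part was not tested. With no library shared between them, 21 members fell in both knockout comparisons (11.1% of all genes) and 4, Cd68, Ctsh, Ctss and Laptm5, rose in both (9.90% of all genes), while Atp6v1h, Ctsz, Gla, Lipa and Npc2 rose in CKO and fell in AD CKO (8.38% of all genes). Ppt1 (-0.11), Mcoln1 (-0.14) and Atp6ap1 (-0.10) no longer passed without WT replicate 1. Ppt1 (-0.11), Mcoln1 (-0.14) and Atp6ap1 (-0.10) no longer passed without WT replicate 2. Gla (-0.30), Man2b1 (-0.14), Mcoln1 (-0.13) and Atp6ap1 (-0.10) no longer passed without AD WT replicate 1. Gla (-0.31), Gusb (-0.13), Man2b1 (-0.16), Manba (-0.25), Ppt1 (-0.09), Cd68 (0.13), Mcoln1 (-0.16) and Atp6ap1 (-0.10) no longer passed without AD WT replicate 2. Gusb (-0.15), Man2b1 (-0.15), Manba (-0.16), Ppt1 (-0.08), Cd68 (0.11), Mcoln1 (-0.16) and Atp6ap1 (-0.09) no longer passed without AD CKO replicate 1. Gla (-0.14), Gusb (-0.22), Man2b1 (-0.16), Ppt1 (-0.14), Mcoln1 (-0.12) and Atp6ap1 (-0.11) no longer passed without AD CKO replicate 2.

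In AD CKO against CKO 16 members (38.1%) rose and 15 (35.7%) fell in the astrocyte libraries (31.4% and 28.4% of all genes), with a median of 0.02. Against CKO, the summed astrocyte and oligodendrocyte markers were higher in AD CKO and the endothelial and neutrophil markers lower, with the values given above, and their part was not tested. With library totals only the split was 21 and 13, and without CKO replicate 1 it was 10 risen with a median of -0.03. The highest rises were those of Man2b1 (0.48), Psap (0.44), Atp6v1a (0.36), Manba (0.34) and Gusb (0.33), and the deepest falls those of Ctss (-0.99), Ctsc (-0.72), Cd68 (-0.71), Atp6v0c (-0.61) and Ctsh (-0.58). Man2b1 stood at 59.6 and 59.6 CPM in the WT libraries, 45.1 and 42.6 in CKO, 69.1 and 67.9 in AD WT and 60.98 and 61.1 in AD CKO. Atp6v1a stood at 162 and 164 CPM in the WT libraries, 119.7 and 125 in CKO, 150.2 and 159 in AD WT and 153 and 160.2 in AD CKO. Gusb stood at 57.4 and 53.7 CPM in the WT libraries, 44.2 and 50.8 in CKO, 66.1 and 71.3 in AD WT and 58.4 and 61.1 in AD CKO. Each was lowest in CKO. Of the members that had risen with the AD model alone, 12 fell here (10.3% of all genes rose in the first and fell in the second) and 6 rose (3.69% of all genes rose in both), and Npc1 alone fell in both (2.19% of all genes). Ctsa (0.11), Ctsd (0.07), Glb1 (0.17), Manba (0.21), Gm2a (0.13) and Atp6v1b2 (0.12) no longer passed without CKO replicate 1. Ctsa (0.11), Ctsd (0.10) and Gm2a (0.14) no longer passed without AD CKO replicate 1. Ctsd (0.09), Manba (0.21) and Atp6v1b2 (0.15) no longer passed without AD CKO replicate 2. Lamp1 (0.13) and Lamp2 (0.13) passed without CKO replicate 2. Lamp1 (0.10) passed without AD WT replicate 1. Lamp1 (0.10) passed without AD WT replicate 2. Gla (-0.38) passed without AD CKO replicate 1.

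The interaction was called for 26 of the 42 members in astrocytes, 18 (42.9%) lower and 8 (19.05%) higher (28.3% and 29.5% of all genes), and with library totals only the split was 16 and 16. The 5 lowest values were those of Cd68 (-3.02), Ctss (-2.91), Laptm5 (-1.52), Ctsc (-1.38) and Ctsh (-1.20). All 5 rose with the knockout without the AD model, and with it Cd68, Ctss, Laptm5 and Ctsh rose by less while Ctsc (-0.08) did not pass. The summed microglia markers, given above for these libraries, were higher with the knockout without the AD model and slightly lower with it, and their part was not tested. The other members below 0 were Npc2 (-0.76), Atp6v0c (-0.75), Cd63 (-0.72), Ctsz (-0.64), Gla (-0.60), Ctsl (-0.58), Lipa (-0.57), Ctsd (-0.54), Atp6v1h (-0.52), Atp6v0d1 (-0.49), Grn (-0.32), Atp6ap2 (-0.18) and Lgmn (-0.18). Those above 0 were Atp6v1a (0.44), Manba (0.41), Psap (0.40), Ppt1 (0.28), Man2b1 (0.28), Lamp1 (0.25), Smpd1 (0.22) and Atp6v1b2 (0.19). Ppt1 stood at 307 and 305 CPM in the WT libraries, 225 and 236 in CKO, 295 and 305 in AD WT and 269 and 279.6 in AD CKO, and its fall with the knockout was -0.41 without and -0.13 with the AD model. Grn stood at 181 and 182 CPM in the WT libraries, 189.9 and 179 in CKO, 242 and 239 in AD WT and 198 and 194 in AD CKO. It had 0.02 and -0.30 in the same 2 comparisons. Tfeb, at 48.5 and 48.8 CPM in the WT libraries, 44.8 and 41.3 in CKO, 43.7 and 44.7 in AD WT and 46.4 and 44.7 in AD CKO, did not pass (0.22). Atp6ap2 (-0.14) no longer passed without WT replicate 1. Lgmn (-0.13) and Atp6v1b2 (0.20) no longer passed without WT replicate 2. Manba (0.29) and Atp6v1b2 (0.15) no longer passed without CKO replicate 1. Lgmn (-0.16) and Atp6ap2 (-0.13) no longer passed without CKO replicate 2. Atp6v1b2 (0.16) no longer passed without AD WT replicate 1. Lgmn (-0.13) and Atp6ap2 (-0.12) no longer passed without AD WT replicate 2. Lgmn (-0.17) and Atp6ap2 (-0.14) no longer passed without AD CKO replicate 1. Lgmn (-0.15), Manba (0.29), Atp6v1b2 (0.18) and Atp6ap2 (-0.18) no longer passed without AD CKO replicate 2. Neu1 (-0.27) passed without WT replicate 1. Mcoln1 (0.25) passed without WT replicate 2. Tfeb (0.29) passed without CKO replicate 1. Scarb2 (0.21) and Mcoln1 (0.27) passed without CKO replicate 2. Tpp1 (0.19), Scarb2 (0.23) and Tfeb (0.25) passed without AD WT replicate 2.

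Counts of other pathway genes in astrocyte libraries are read against 31.6% of all genes risen and 32.4% fallen in CKO against WT, and 25.1% and 27% in AD CKO against AD WT. The 28 further lysosomal enzymes had 7 risen and 18 fallen in CKO against WT, led by Gaa (-1.40), Pcyox1 (-1.24) and Ctsf (-1.16), and 3 risen and 18 fallen in AD CKO against AD WT, led by Ctsf (-0.72) and Ggh (-0.64). Of 20 further membrane genes 13 fell and 4 rose in the first comparison, with Sidt2 (-1.22), Abcd4 (-1.16) and Ctns (-1.03), and 14 fell and 1 rose in the second, with Abcd4 (-0.63), Cln3 (-0.57) and Laptm4a (-0.40). Of 13 further V-ATPase subunits 7 rose and 3 fell in the first comparison and 2 rose and 8 fell in the second. Atp6v0a1 fell in CKO against WT (-1.58) while Atp6v1g1 rose (0.77). Atp6v0d2, the osteoclast and macrophage subunit, was also called higher there, at 10.0 ± 0.77 (SE), with a far wider SE than these. A value of that size depends on the level of Atp6v0d2 in WT, which is not given here, so it is not read as a size of change. Atp6v0e (-0.89), Atp6v0b (-0.67) and Atp6v1e1 (-0.55) fell in AD CKO against AD WT. Of the 16 genes of the Tfeb family and of nutrient sensing, only the 3 passing genes with the smallest p in each comparison are named. Counts risen and fallen of these 16 are not given here. The Ragulator subunits Lamtor5 and Lamtor2 rose in CKO against WT, by 0.88 and 0.97, and Flcn fell (-0.72). In AD CKO against AD WT, Lamtor5 (-0.64) and Rraga (-0.63) fell and Rragd (0.63) rose. Of 9 sorting genes 5 fell in CKO against WT, with Gnptab (-1.59), Sort1 (-0.88) and Gga3 (-0.82), and 4 rose and 2 fell in AD CKO against AD WT, where Gnptab and Sort1 rose by 0.72 and 0.61. Cystatin F (Cst7) stood at a mean of 0.329 CPM in WT, 15.8 in CKO, 43.9 in AD WT and 26.3 in AD CKO.

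Between the cell types, the WT microglia libraries held more lysosomal transcripts than the WT astrocyte libraries. Of the members, in a joint fit of both cell types, 33 (78.6%) were higher in microglia and 7 (16.7%) lower (39.5% and 39.4% of 20589 genes), with a median of 1.26. With library totals only that median was 0.97, on a scale that moved the median of all genes to -0.30. In the scaling of each cell type's own fit, oligodendrocyte markers summed to 14325 and 14490.1 CPM in the WT astrocyte libraries, beside 23422 and 23819 of astrocyte markers. In the WT microglia libraries the oligodendrocyte markers summed to 3141 and 3282 CPM. The part of other cells in the differences between the cell types was not tested. The highest differences were those of Laptm5 (7.49 ± 0.13, SE), Ctss (7.12 ± 0.05), Cd68 (6.84 ± 0.07), Man2b1 (4.89 ± 0.05) and Grn (4.41 ± 0.05), followed by Ctsd (4.29), Lgmn (4.26) and Ctsc (4.13). All 7 cysteine proteases and all 3 other proteases were higher in microglia. As counted, the V-ATPase genes went mainly the other way, 5 of 7 being lower, with Atp6v1h (-0.82), Atp6v0d1 (-0.56), Atp6v1a (-0.37), Atp6v0c (-0.27) and Atp6ap2 (-0.12), and Atp6ap1 (0.74) and Atp6v1b2 (0.48) higher. The pseudogene Atp6v0c-ps2 held 20.7% and 14.4% of the counts of both in the WT microglia libraries. In the astrocyte libraries it stood at no more than 0.101 CPM. Its counts were not added in this comparison, so the direction of Atp6v0c between the cell types is uncertain. Atp6v1h shares 127 exonic bases with Rgs20 on the opposite strand. Rgs20 stood at 61.0 to 145.6 CPM of library totals in the astrocyte libraries and at no more than 1.70 in microglia, so the difference of Atp6v1h is uncertain too. Lower in microglia were also Smpd1 (-1.74) and Cd63 (-0.72). Levels of these members are given in CPM per kb of exon, with the WT microglia libraries first and the WT astrocyte libraries second. Laptm5 stood at 1953 and 2264 against 11.1 and 12.2. Ctss stood at 5941 and 5943 against 43.3 and 42.2. Cd68 stood at 926 and 951 against 8.38 and 7.98. Man2b1 stood at 191 and 199 against 6.58 and 6.56. Grn stood at 965 and 1004 against 46.2 and 46.4. On the lower side, Smpd1 stood at 33.1 and 35.4 against 115 and 113. Atp6v1h stood at 8.45 and 8.21 against 14.5 and 14.9. Cd63 stood at 132 and 133 against 225 and 210.02. Atp6v0d1 stood at 51.99 and 53.4 against 77.96 and 77.3. Atp6v1a stood at 18.7 and 18.3 against 23.8 and 23.97. The cell types did not overlap for any of these 10 members. Gla (-0.08) and Npc1 (0.08) did not pass. Atp6ap2 (-0.11) no longer passed without Microglia WT replicate 2. Atp6ap2 (-0.11) no longer passed without Astrocyte WT replicate 2.

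**Figure D5:**
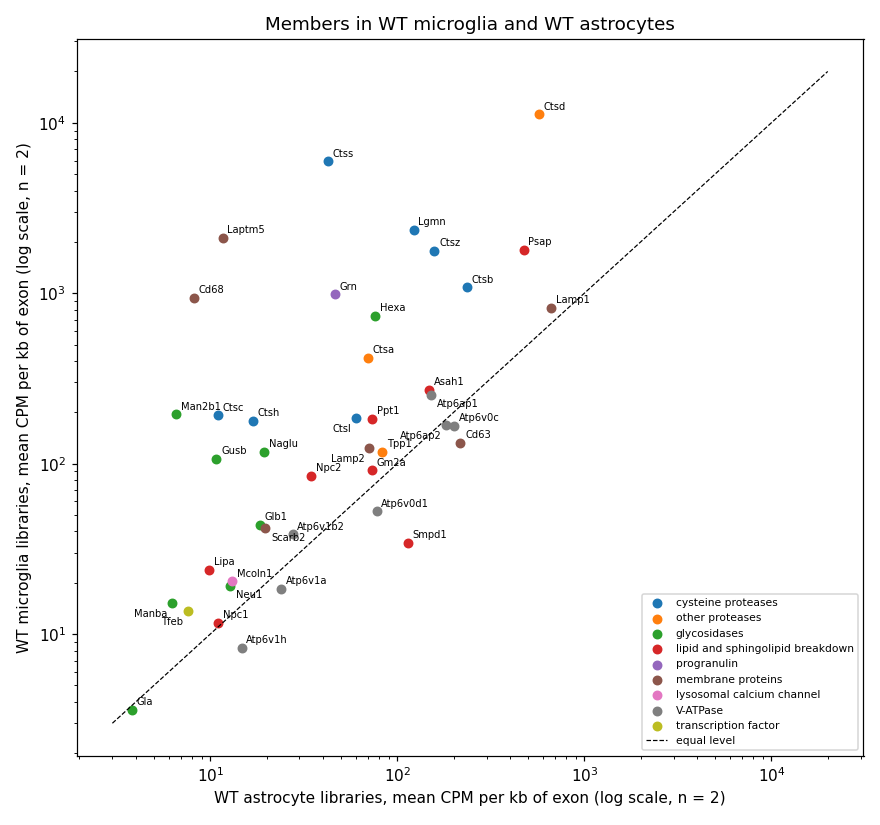
Mean level of each member in the 2 WT microglia libraries (vertical) against the 2 WT astrocyte libraries (horizontal), as CPM per kb of exon in the joint scaling, both on log axes; colours are roles and the dashed line is equal level. Laptm5, Ctss and Cd68 lie furthest above the line and Smpd1 furthest below it, with 5 of the 7 V-ATPase genes under the line. Among these is Atp6v0c, shown without the counts of its pseudogene.

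Per kb of exon, which allows levels of different genes to be compared, the order in WT microglia ran from Ctsd at 9741 ± 376 (SD, n = 2), Ctss at 5176 ± 5.35 and Lgmn at 2052 ± 38.1 down to Npc1 at 10.2 ± 0.330, Atp6v1h at 7.26 ± 0.138 and Gla at 3.14 ± 0.263 CPM per kb. In the WT astrocyte libraries, which also held the oligodendrocyte markers given above, it ran from Lamp1 at 751 ± 10.2, Ctsd at 646 ± 7.60 and Psap at 537 ± 10.3 down to Man2b1 at 7.43 ± 0.00707, Manba at 7.08 ± 0.231 and Gla at 4.29 ± 0.302. Levels per kb divide by the joined exons of all annotated transcripts, so a gene with long rarely used exons reads low. In counts, Gla had 337 and 292 in the WT microglia libraries, the lowest depth behind any member there. Of the 42 members, 12 share exonic bases with another annotated gene and 4 (Atp6ap2, Atp6v0c, Cd63 and Ctsl) have a pseudogene of near-identical sequence. Of the overlapping genes, Ctsd shares 808 bases on its own strand with Gm49369, which stood at no more than 104 CPM in microglia.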

How the data were processed

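The deposited tables hold 1 expected count per gene and library, many of them fractional, without normalization. Per the labels' protocols, libraries were made from total RNA with a low-input SMART-Seq kit and read as pairs of 150 bases, and the submitters' processing notes name fastp, HISAT2, StringTie and mm10. The counting step and annotation release are not given in the sources used here. Counts were rounded and fitted for each cell type over its 8 libraries, without a replicate block, in edgeR 4.0.16 (filterByExpr, TMM, robust quasi-likelihood F-test, Benjamini-Hochberg adjustment over all genes tested, threshold 0.05), and the cell types were compared in 1 fit of all 16 libraries over the features of both tables. The scripts were tested on simulated counts with known changes. That simulation gave every gene of a cell type the same spread and balanced the changes in both directions, so it does not test calls that depend on scaling. The common biological coefficient of variation was 0.0678 in microglia and 0.0579 in astrocytes. Features without a symbol held 0.106% of microglia and 0.142% of astrocyte counts. Gene positions and exon lengths came from GENCODE M21 by gene ID, since the tables' IDs include newer ones, and promoter windows from RefSeq. Kit and counting were not stated to keep strand, so overlapping genes are uncertain.

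The members, lists and tests were chosen with earlier results of these data known. Values were given in every library for the 5 highest and 5 lowest passing members of each comparison and for Tfeb, Mcoln1 and Grn; all passing members of the interaction were named, and up to 3 other pathway genes per list, of which 1 gene is not reported here. Alternatives were RLE or no scaling factors, DESeq2 1.42.0, limma-voom 3.58.1, other filters, a replicate block, the compared groups alone and each library left out; adding the pseudogene's counts to Atp6v0c was chosen after seeing the data.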

Additional observations from a re-analysis of the deposited data

Results flagged for a closer look

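The members listed here were singled out because the knockout effect differed with the AD model by the test of that difference (edgeR's quasi-likelihood test of AD CKO minus AD WT against CKO minus WT, adjusted over all genes tested). Values are that difference on the log2 scale, and adjusted p-values for the 12 microglial members ran from 8.2e-07 to 0.041 and for the 26 astrocyte members from 2.2e-19 to 0.031. In microglia the knockout effect was higher with the AD model for Lgmn (0.37), Ctsc (0.30), Smpd1 (0.26), Ctsh (0.26), Asah1 (0.24) and Ctss (0.16). It was lower for Cd63 (-0.29), Atp6v0c (-0.29), Npc2 (-0.25), Gusb (-0.24), Glb1 (-0.22) and Ctsb (-0.13). In the astrocyte libraries it was higher with the AD model for Atp6v1a (0.44), Manba (0.41), Psap (0.40), Ppt1 (0.28), Man2b1 (0.28), Lamp1 (0.25), Smpd1 (0.22) and Atp6v1b2 (0.19). It was lower for Cd68 (-3.02), Ctss (-2.91), Laptm5 (-1.52), Ctsc (-1.38), Ctsh (-1.20), Npc2 (-0.76), Atp6v0c (-0.75), Cd63 (-0.72), Ctsz (-0.64), Gla (-0.60), Ctsl (-0.58), Lipa (-0.57), Ctsd (-0.54), Atp6v1h (-0.52), Atp6v0d1 (-0.49), Grn (-0.32), Atp6ap2 (-0.18) and Lgmn (-0.18). Groups of 2 libraries are too small to look for a single library far from the others.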

How the results depend on the processing

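Of the values recomputed under each setting, 7784 kept their side of the threshold or, for counts and medians, stayed within their limit. Of the rest, 258 lost a call, 132 gained one and 19 moved a count or median beyond its limit. A further 7 turned the sign of a member that passed in at least 1 of the 2 settings. Sign changes of members that passed in neither, and of medians within the limit, are among the 7784. All 7 reversals came with library totals as the only scaling: in astrocyte AD CKO against AD WT Man2b1 (0.032), Ppt1 (0.071), Lamp1 (0.031), Scarb2 (0.16), Mcoln1 (0.043) and Atp6ap1 (0.082), and in WT microglia against WT astrocytes Npc1 (-0.21). That scaling also gave, in microglia, 2 members fallen in AD WT against WT and 1 fallen with a median of 0.23 in AD CKO against CKO. In astrocytes it gave a median of -0.15 in CKO against WT, 8 risen and 18 fallen with a median of -0.093 in AD CKO against AD WT, a median of 0.14 in AD CKO against CKO, and 16 risen with a median of 0.013 in the interaction. It moved the median of all genes by more than 0.1 in astrocyte AD CKO against AD WT (to 0.16), in AD CKO against CKO (to 0.11), in the astrocyte interaction (from -0.022 to 0.088) and between the cell types (to -0.30). The median between the cell types was 0.97 with library totals, 1.16 with RLE, 1.16 with DESeq2 and 1.20 without a filter, and ran from 1.20 to 1.26 with 1 library left out. Leaving out 1 library moved the members risen in astrocyte AD CKO against CKO to between 10 and 18, with a median between -0.026 and 0.032, the lowest of each without CKO replicate 1. Replicate numbers are only numbers in the labels: deviations of libraries with the same number correlated at -0.05 to 0.05, and with a replicate block the members risen in the microglia interaction went from 6 to 10, the one count of members that the block moved by over 1.5 times. Gla, at 292 and 337 counts in the WT microglia libraries, was the member with the least depth. Adding the pseudogene's counts left every call of Atp6v0c within each cell type as it was. They were not added in the comparison between the cell types.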
